A study of Saccharomyces cerevisiae with 19 samples.

Results

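The thiamine synthesis genes THI2, THI3, THI4, THI5, THI6, THI7, THI11, THI12, THI13 and THI20 of Saccharomyces cerevisiae were followed across strains that differ in Pcf11, a subunit of the machinery that cleaves and polyadenylates messenger RNA. They were taken by name from count tables of 6409 named features, with earlier results of these data known. All 10 were found and all 10 passed the filter on low counts, which left 6147 features. RNA sequencing covered 5 strains with 3 biological replicates each, grown at 30°C and labelled 36 h. The strains were WT, a strain labelled as a deletion of the gene (ΔPcf11) and 2 overexpression strains, Pcf11-OE1 and Pcf11-OE2. In a further strain, Pcf11-AARR, 4 conserved residues of the protein are changed. Both S288C and CEN.PK2-1C are named for each library, and the labels do not say which promoter and terminator pair belongs to which overexpression strain, nor how much thiamine the medium held. The same 3 WT libraries serve each comparison with WT, so that anything else that sets those libraries apart cannot be told apart from Pcf11.

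Thiamine diphosphate, the active form of vitamin B1, is the cofactor of pyruvate decarboxylase, transketolase and related enzymes. Yeast builds the thiazole and the pyrimidine of thiamine separately. THI4 supplies the thiazole, the THI5 family (THI5, THI11, THI12 and THI13) supplies the pyrimidine from pyridoxal phosphate and histidine, THI20 phosphorylates the pyrimidine, and THI6 joins them. THI7 takes thiamine up from the medium. THI2 and THI3, together with PDC2, are regulators that switch the pathway on when thiamine runs short, and an ample supply of thiamine represses it.

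Total counts were 26211192 to 46296634 for each library, and the members held 106 to 3302 reads in a library. Levels are CPM, reads scaled to a common library size, after TMM scaling, which corrects for differences in composition between libraries. Reads on PCF11 were not missing from the libraries labelled ΔPcf11 (13.0 ± 0.893 CPM against 15.2 ± 2.13 CPM in WT, SD, n = 3), so this group is named here by its label. PCF11 also rose in Pcf11-AARR, to 21.2 ± 1.22 CPM (log2 fold change 0.48, edgeR adjusted p = 0.00345), so the residue mutant differs from WT in its level too. It rose to 590 ± 33.0 CPM in Pcf11-OE1 and to 76.2 ± 11.7 CPM in Pcf11-OE2. Of 9 libraries in the authors' mapping table, 83.6% to 95.3% of the reads mapped in WT, 56.4% to 61.9% in the libraries labelled ΔPcf11 and 49.9% to 91.6% in Pcf11-AARR, and the part of this difference in the values below was not tested.

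The 4 THI5 family genes are near-identical, and their sequences are shown first because they set what the counts can tell apart. THI5 (YFL058W) lies on chromosome VI, THI12 (YNL332W) on XIV, THI11 (YJR156C) on X and THI13 (YDL244W) on IV, each with a coding sequence of 1023 bases in the count tables and no bases beyond the stop codon. The coding sequences are 97.8% to 99.3% identical, THI5 and THI12 being the closest pair with 7 differing bases. Of all 100-base windows in the gene, 40.5% occur nowhere else in assembly R64 for THI5, 49.1% for THI12, 54.7% for THI11 and 62.7% for THI13, against 100% for each of the other 6 members. How the authors counted reads that fit several copies is not given in the sources used here, so values of single copies are uncertain and the sum of the 4 is given beside them. The 130 coding bases that hold the most differences, from base 405 to 534, are shown with capitals for 11 of the 27 positions at which the copies differ. They are read from R64 on the coding strand at chrVI:13333-13462 (plus strand) for THI5, chrXIV:15236-15365 (plus strand) for THI12, chrX:729063-729192 (minus strand) for THI11 and chrIV:16608-16737 (plus strand) for THI13.
THI5: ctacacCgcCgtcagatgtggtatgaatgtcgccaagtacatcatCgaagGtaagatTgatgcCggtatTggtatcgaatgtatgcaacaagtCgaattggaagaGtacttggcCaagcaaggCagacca
THI12: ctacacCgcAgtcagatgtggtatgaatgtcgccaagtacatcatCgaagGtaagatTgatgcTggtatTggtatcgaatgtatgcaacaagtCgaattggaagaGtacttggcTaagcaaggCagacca
THI11: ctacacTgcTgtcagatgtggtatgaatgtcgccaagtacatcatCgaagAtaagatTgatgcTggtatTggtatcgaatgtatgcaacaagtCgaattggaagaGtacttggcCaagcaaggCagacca
THI13: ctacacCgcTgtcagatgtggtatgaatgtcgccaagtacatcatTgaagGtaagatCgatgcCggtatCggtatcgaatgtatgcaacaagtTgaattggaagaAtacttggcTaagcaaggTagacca

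Before the start codon the copies fall into pairs. Their coding sequences do not pair in the same way, since THI11 differs from THI13 by 17 bases and from THI5 by 12. The 300 bases before THI11 and THI13 are identical. Those before THI5 and THI12 differ by a single substitution, T62C, counted back from the base next to the start codon. Between the pairs, THI5 and THI11 differ by 15 substitutions and 2 gapped bases (94.4% identical). The sequences of THI5 (chrVI:12629-12928, plus strand) and THI11 (chrX:729597-729896, minus strand) are shown 5′ to 3′ up to the start codon because the pairs they stand for also differed in their counts, with capitals for bases that differ between them or face a gap.
THI5: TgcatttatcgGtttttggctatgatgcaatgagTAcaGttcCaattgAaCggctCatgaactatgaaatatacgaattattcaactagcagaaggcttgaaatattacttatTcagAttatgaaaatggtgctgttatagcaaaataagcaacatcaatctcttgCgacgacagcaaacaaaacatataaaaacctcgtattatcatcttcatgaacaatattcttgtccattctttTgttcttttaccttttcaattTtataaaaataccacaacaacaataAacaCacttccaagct
THI11: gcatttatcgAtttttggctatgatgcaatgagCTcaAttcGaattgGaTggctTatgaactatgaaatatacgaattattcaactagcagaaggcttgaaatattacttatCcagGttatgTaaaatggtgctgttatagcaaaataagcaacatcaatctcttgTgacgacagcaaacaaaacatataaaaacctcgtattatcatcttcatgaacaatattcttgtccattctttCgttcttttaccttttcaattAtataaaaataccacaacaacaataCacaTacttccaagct

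The TATA box letters TATAAA were present on either strand within these 300 bases in THI5, THI11, THI12, THI13, THI4 and THI6, that is in 6 of 10 members, and in 48.2% of 6007 nuclear genes. The pairs also lie in different surroundings. SNZ3 stands 669 bases before THI5 and SNZ2 stands 668 bases before THI12, followed by SNO3 and SNO2. The SNZ and SNO genes belong to vitamin B6 synthesis, whose product is the source of the thiamine pyrimidine. THI11 and THI13 instead have the hexose transporter genes HXT16 and HXT15 at the same distance of 2843 bases, and next to those the sorbitol dehydrogenase genes SOR1 and SOR2. AAD genes, which encode putative aryl-alcohol dehydrogenases, follow the stop codons of THI12 (AAD14), THI11 (AAD10) and THI13 (AAD4). Only genes annotated as protein-coding were looked at, and the next of these after THI5 is AGP3, 3052 bases away. Whether an AAD sequence of another annotation type lies between them was not examined.

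In the libraries labelled ΔPcf11, 5 of 10 members were higher than in WT and 0 were lower at an edgeR adjusted p of 0.05, where 34.8% of all features tested were called higher and 29.1% lower. THI4, THI7, THI12, THI5 and THI3 made up the count, with a median log2 fold change of 0.26 over the 10 members and 0.07 over all features. Lower members also numbered 0 at an unadjusted p under 0.05 and by DESeq2, and 1 in a fit of these strains alone (THI13). Pcf11-AARR differed from WT in 3 members, with THI7 higher and THI13 and THI11 lower, against a background of 33.8% higher and 30.4% lower. In Pcf11-OE1, 4 members were higher (THI7, THI2, THI3, THI6) and 4 lower (THI13, THI11, THI5, THI20), against 36.0% and 32.1% of all features. In Pcf11-OE2, 6 were higher and 2 lower, against 34.0% and 31.1%. With so many features called in each direction, these counts are near the background and are no result about the members as a group.

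In comparisons without WT, Pcf11-AARR stood below the libraries labelled ΔPcf11 in 6 members (THI4, THI13, THI5, THI12, THI11, THI3) and above them in 0. Of all features, 18.8% were higher and 21.8% lower. THI13, THI5, THI12 and THI11 share reads, so they are not separate members for this count. This count rests on a few libraries, being 1 without ΔPcf11 replicate 2, 2 without Pcf11-AARR replicate 1 and 1 with scaling by library totals alone, and THI4 was called in each of these. Pcf11-OE2 against Pcf11-OE1 had 2 members higher (THI5 and THI12) and 0 lower, against 0.260% of all features higher (16 genes) and 1.29% lower (79 genes). THI5 and THI12 are the closest pair of copies, so in this comparison too the calls are not separate. The median log2 fold change of the members was 0.24 there and 0.00 over all features. THI12 lost its call without Pcf11-OE1 replicate 1 or 2, or without Pcf11-OE2 replicate 1 or 3, and in a fit of the overexpression strains alone neither gene was called (0 members by edgeR, 3 at an unadjusted p under 0.05).

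A further comparison, chosen after the values were seen, set Pcf11-OE1 against the libraries labelled ΔPcf11. It had 3 members higher (THI2, THI7, THI6) and 6 lower (THI4, THI5, THI11, THI13, THI12, THI20), where 31.1% of all features were higher and 29.0% lower. THI4, which supplies the thiazole, differed by -2.07 ± 0.28 on the log2 scale (edgeR adjusted p = 2.31e-05). THI5, a copy among those that supply the pyrimidine, differed by -1.22 ± 0.16 (edgeR adjusted p = 1.52e-05). The THI5 family sum differed by -1.08 ± 0.14 (edgeR adjusted p = 1.3e-05). The transporter THI7 went the other way, with 0.76 ± 0.19 (edgeR adjusted p = 0.00321). THI3 was the member not called (0.10 ± 0.12, edgeR adjusted p = 0.479). With 31.1% and 29.0% of all features called, the count itself is no result about the members as a group.

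**Figure D1:**
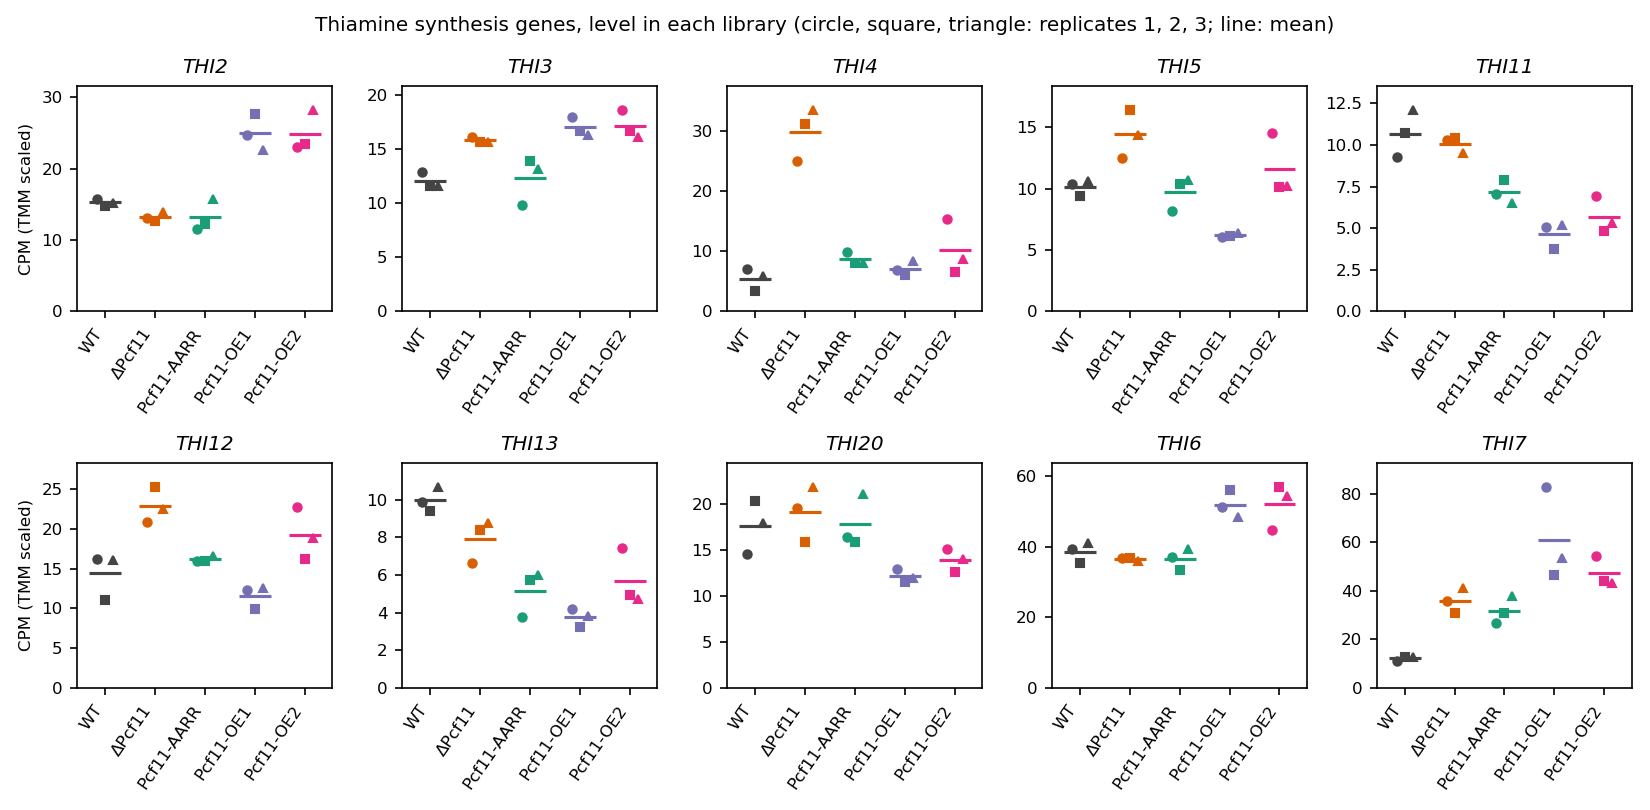
Level of each of the 10 members in CPM (y axis, linear from 0) in the 15 libraries, grouped by strain on the x axis. Symbols are replicates and lines are means. THI4 in the libraries labelled ΔPcf11 (25.0 to 33.5 CPM) and THI7 in each altered strain stand clear of WT, and replicate 1 of Pcf11-OE2 is the highest of its strain for THI4 and the 4 THI5 family genes.

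**Figure D2:**
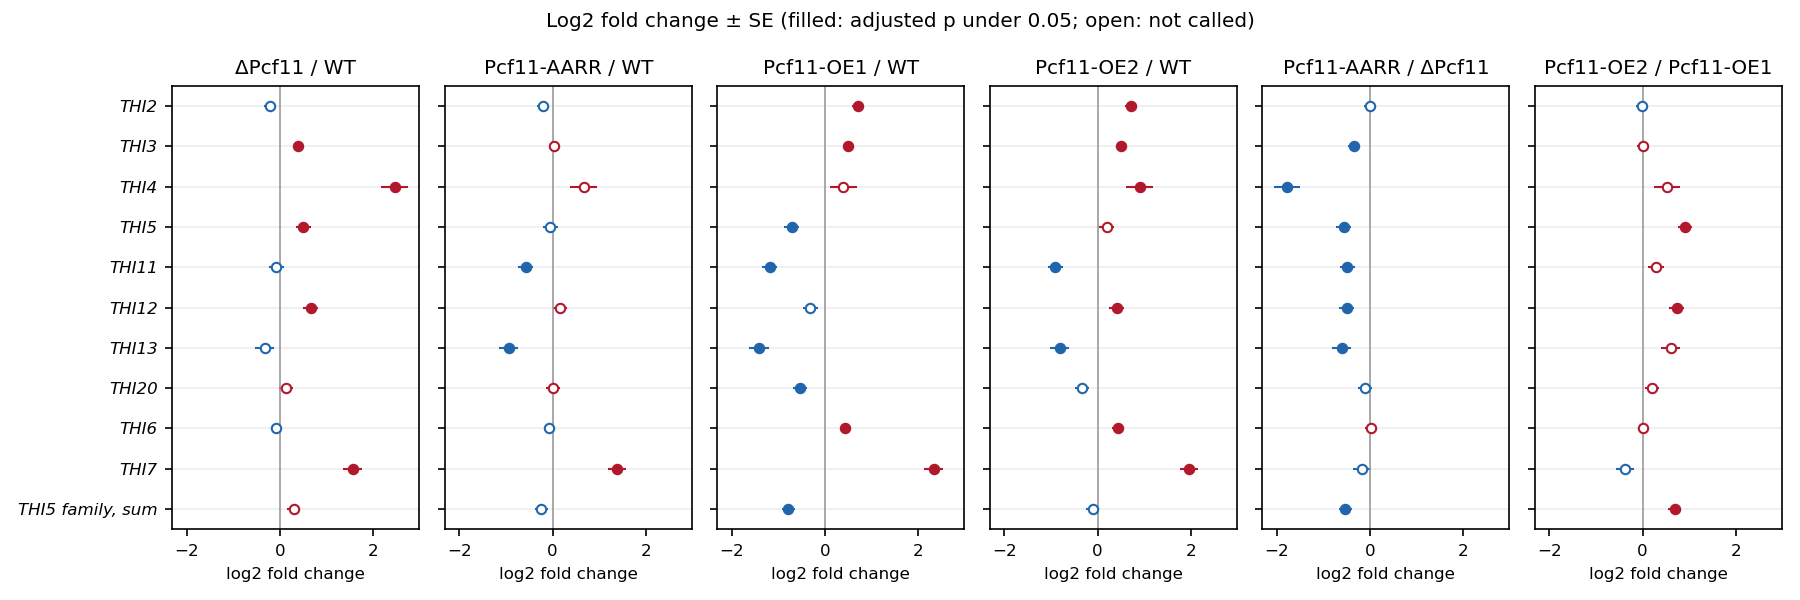
Log2 fold change with its standard error for each member and for the THI5 family sum, by comparison, on a shared x axis. Filled points have an edgeR adjusted p under 0.05. THI7 is filled to the right of 0 in each comparison with WT, and THI4 in the libraries labelled ΔPcf11 (2.46) and THI7 in Pcf11-OE1 (2.33) lie farthest to the right.

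THI4, whose protein gives up its own sulfur to make the thiazole and works only once, had the highest log2 fold change of any member in the libraries labelled ΔPcf11, and only THI7 in Pcf11-OE1 came near it (2.33, or 2.61 against 2.59 for THI4 with library totals alone and 2.36 against 2.22 without WT replicate 2). Its level was 7, 3.47 and 5.87 CPM in the 3 WT libraries and 25.0, 31.2 and 33.5 CPM in those labelled ΔPcf11. The groups lay far apart, and the log2 fold change was 2.46 ± 0.29 SE, 5.51-fold (edgeR adjusted p = 5.36e-06), staying between 2.22 and 2.67 when any 1 library was left out. THI4 (YGR144W) lies on chromosome VII, bases 780399 to 781802, plus strand, and its feature runs 423 bases past the stop codon, of which 36 are shared with ENP2 on the same strand.

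The other strains held far less THI4. Pcf11-AARR had 9.84, 8.06 and 8.12 CPM, each above the highest WT library, with a log2 fold change of 0.67 ± 0.29 that missed the threshold (edgeR adjusted p = 0.0526). Deviations of same-numbered replicates of Pcf11-AARR and WT correlated weakly (0.116, 0.181 and 0.339). A fit with a replicate block over all strains is therefore given too, and it called THI4 at 0.71 (edgeR adjusted p = 0.0274). Pcf11-OE1 had 6.96, 6.06 and 8.31 CPM, overlapping WT. Pcf11-OE2 had 15.4, 6.60 and 8.75 CPM, spread over a wide range with replicate 1 on top. Its log2 fold change against WT of 0.91 ± 0.29 (edgeR adjusted p = 0.0116) became 0.50 without that library and 0.67 without WT replicate 2, and in both cases was no longer called. Ordered by mean, THI4 thus went from WT through Pcf11-OE1, Pcf11-AARR and Pcf11-OE2 to the libraries labelled ΔPcf11. Neighbours up to Pcf11-OE2 overlapped, and the lowest ΔPcf11 library lay above the highest of any other strain. Pcf11-AARR was 1.79 ± 0.28 below the libraries labelled ΔPcf11 on the log2 scale (edgeR adjusted p = 0.000243), a log2 fold change of -1.79.

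The summed THI5 family, the source of the pyrimidine, moved otherwise. It stood at 45.8, 40.6 and 49.5 CPM in WT and at 27.7, 22.9 and 28.1 CPM in Pcf11-OE1, which was below WT in each library. The log2 fold change there was -0.79 ± 0.14 (edgeR adjusted p = 0.000143) and remained called under each alternative, from -0.88 to -0.70 with 1 library left out and -0.50 with library totals alone. The libraries labelled ΔPcf11 held 50.3, 60.5 and 55.2 CPM, above each WT library, but the log2 fold change of 0.29 ± 0.14 missed the threshold (edgeR adjusted p = 0.0743).

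Pcf11-AARR had 34.9, 39.9 and 39.8 CPM, just under the lowest WT library, with a log2 fold change of -0.24 ± 0.14 (edgeR adjusted p = 0.129). Pcf11-OE2 had 51.6, 36.1 and 39.2 CPM, on either side of WT (log2 fold change -0.10 ± 0.14, edgeR adjusted p = 0.539). In neither strain was a difference of the sum from WT detected, and with library totals alone both values changed sign without a call. Against each other, Pcf11-OE2 stood 0.69 ± 0.14 above Pcf11-OE1 on the log2 scale (edgeR adjusted p = 0.0126), with no overlap. The value became 0.52 without Pcf11-OE2 replicate 1 and 0.60 without Pcf11-OE1 replicate 2, and the call was lost in both. It was also lost, at an unchanged 0.69, when each count table or these strains alone were fitted (edgeR adjusted p = 0.0597 and 0.192).

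Single copies did not follow their sum alike. THI5 had 10.4, 9.44 and 10.6 CPM in WT, 12.5, 16.4 and 14.4 CPM in the libraries labelled ΔPcf11 and 6.08, 6.11 and 6.41 CPM in Pcf11-OE1. It thus lay above WT in the former (log2 fold change 0.50 ± 0.16, edgeR adjusted p = 0.0109) and below WT in the latter (-0.71 ± 0.16, edgeR adjusted p = 0.0011), with no overlap in either. Without ΔPcf11 replicate 2, the first value was 0.40 and not called. THI12, its closest relative, rose in the libraries labelled ΔPcf11 (20.9, 25.3 and 22.5 CPM against 16.2, 11.1 and 16.1 CPM in WT, log2 fold change 0.66 ± 0.16, edgeR adjusted p = 0.00216). In Pcf11-OE2, with 22.7, 16.2 and 18.9 CPM, it was called at 0.41 ± 0.16 (edgeR adjusted p = 0.0324), but not without WT replicate 2 (0.25), Pcf11-OE2 replicate 1 (0.28) or Pcf11-OE2 replicate 3 (0.34).

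THI11 and THI13 were called higher in no comparison. THI13 had 9.88, 9.38 and 10.7 CPM in WT against 3.75, 5.71 and 6.02 CPM in Pcf11-AARR, 4.22, 3.23 and 3.83 CPM in Pcf11-OE1 and 7.43, 4.92 and 4.71 CPM in Pcf11-OE2. Each library of these strains was below each WT library, with log2 fold changes of -0.94 ± 0.20, -1.41 ± 0.21 and -0.81 ± 0.20. THI11 fell in the same strains, by 0.57, 1.19 and 0.91 on the log2 scale, though with library totals alone its call in Pcf11-AARR was lost (-0.22). AAD4 overlaps 86 bases of THI13 on the other strand, 8.4% of the gene.

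Since the counts of a library share its scaling, the share of each copy in the 4 genes' reads is free of it. THI12 gave 31.8% ± 4.06 of the reads in WT, 41.4% ± 0.586 in ΔPcf11 and 42.4% ± 3.08 in Pcf11-AARR, with 44.2% ± 1.04 for Pcf11-OE1 and 45.7% ± 2.31 for Pcf11-OE2 (SD, n = 3). THI13 went the other way, from 22.1% ± 0.866 in WT to between 13.3% ± 1.22 and 14.3% ± 1.40 in the altered strains. THI5 moved less, from 22.5% ± 0.889 in WT to 23.8% ± 2.49 in Pcf11-OE1, which overlapped WT, and 27.4% ± 1.16 in Pcf11-OE2. THI11 went from 23.7% ± 3.07 in WT to 18.3% ± 1.82 in ΔPcf11, which overlapped WT, and 13.5% ± 0.115 in Pcf11-OE2. The ratio of THI5 and THI12 reads to THI11 and THI13 reads, a pairing taken from the upstream sequences after the counts were seen, was 1.20 ± 0.183 in WT.

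In each altered strain this ratio was higher. The libraries labelled ΔPcf11 gave 2.07 ± 0.130 and Pcf11-AARR gave 2.11 ± 0.162. Of the overexpression strains, Pcf11-OE1 gave 2.13 ± 0.16 and Pcf11-OE2 gave 2.73 ± 0.161. The highest WT library (1.39) lay below the lowest of the other 12 (1.93). Exact two-sided permutation tests of 3 against 3 libraries gave p = 0.1 for each comparison with WT, the smallest this size allows, and 0.14 after Benjamini-Hochberg adjustment over 7 comparisons. The 4 comparisons share the WT libraries, and whether WT carries the same copies as the altered strains was not tested. Pcf11-AARR and the libraries labelled ΔPcf11 overlapped in this ratio (exact permutation p = 0.9).

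**Figure D3:**
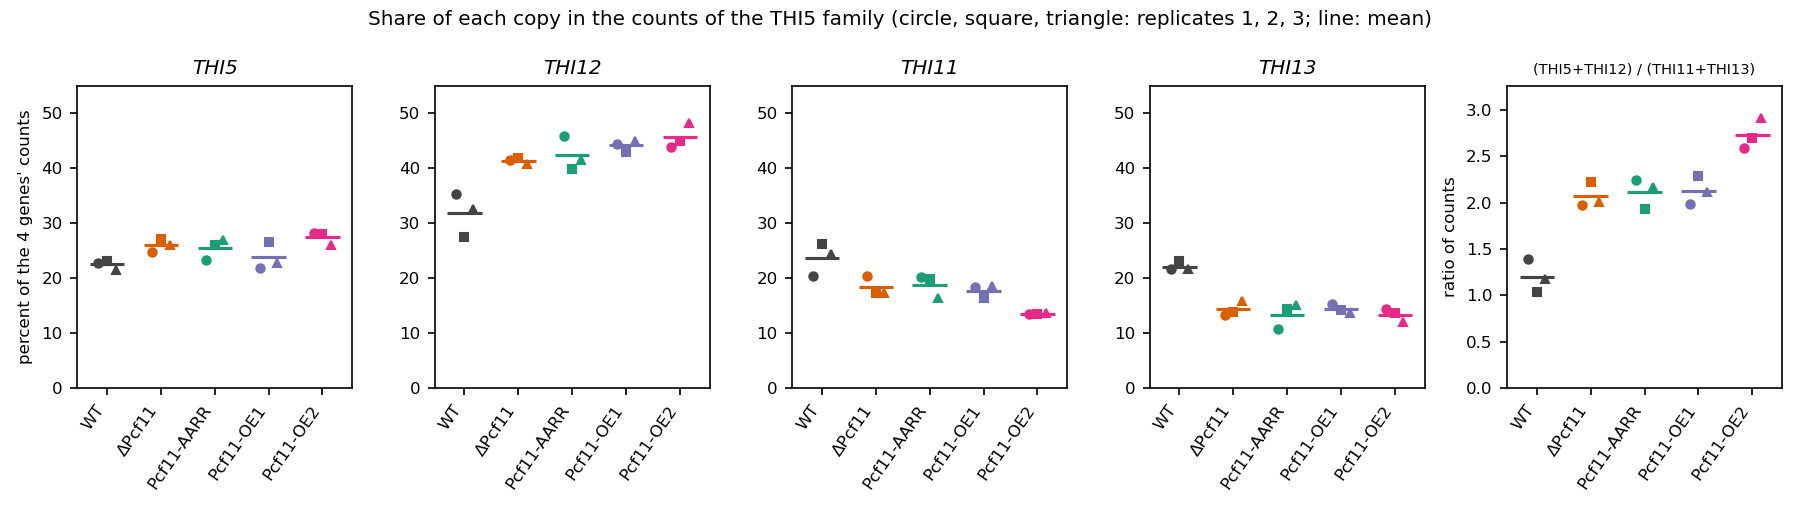
Share of each copy in the reads of the 4 THI5 family genes (percent, first 4 panels) and ratio of THI5 and THI12 reads to THI11 and THI13 reads (last panel), by strain. Symbols are replicates and lines are means. The ratio is 1.03 to 1.39 in WT and 1.93 or more in each other library.

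The reads of neighbouring genes moved in still other ways. SNZ3 and SNO3 before THI5 rose in each altered strain, for SNZ3 by log2 fold changes of 1.30 in ΔPcf11 and 1.02 in Pcf11-AARR, then 1.29 and 1.89 in the overexpression strains Pcf11-OE1 and Pcf11-OE2. SNZ2 and SNO2 before THI12 rose likewise. SNZ2 and SNZ3 are 99.3% identical, so their reads cannot be fully assigned either. On the other side, SOR1 beyond THI11 and SOR2 beyond THI13 rose in each altered strain by 3.06 to 3.57 on the log2 scale, while THI11 and THI13 themselves fell or were not called. Beyond SNO3, DDI2 (as the count tables name it) rose by 0.91 on the log2 scale in the libraries labelled ΔPcf11. DDI3, at the same place beyond SNO2, fell in Pcf11-AARR (-1.78), Pcf11-OE1 (-2.06) and Pcf11-OE2 (-2.03). Whether reads of DDI2 and DDI3, or of SOR1 and SOR2, can be told apart was not tested.

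THI20, which phosphorylates the pyrimidine and also carries a thiaminase domain, had 14.6, 20.3 and 17.9 CPM in WT. It fell only in Pcf11-OE1, to 12.9, 11.5 and 12 CPM, below each WT library (log2 fold change -0.54 ± 0.15, edgeR adjusted p = 0.00615), and with library totals alone this call was lost (-0.25). Pcf11-OE2 had 15.1, 12.6 and 14.0 CPM, overlapping WT, with a log2 fold change of -0.34 ± 0.15 that missed the threshold (edgeR adjusted p = 0.062). That the strains differ in THI20 was not shown, since Pcf11-OE2 against Pcf11-OE1 gave 0.20 ± 0.15 (edgeR adjusted p = 0.778). GPM3 overlaps 29.8% of the THI20 feature on the other strand, so some of its reads may belong to either gene. The paralog THI21 (82.3% identical in its coding sequence) fell in Pcf11-AARR, with a log2 fold change of -0.94 ± 0.16 (edgeR adjusted p = 0.000105).

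THI6, the enzyme that joins thiazole and pyrimidine, changed little. As counted, it had the highest level per length of the members in WT, 18.7 CPM per kilobase. How reads shared by the THI5 family copies were counted is not known, so the rank of THI6 above THI12 is uncertain. THI6 had 39.3, 35.5 and 41.1 CPM in WT, 51.3, 56.1 and 48.4 CPM in Pcf11-OE1 and 44.9, 57.1 and 54.4 CPM in Pcf11-OE2. Both overexpression strains were above WT without overlap, and each gave a log2 fold change of 0.43 ± 0.11 (edgeR adjusted p = 0.00256 and 0.00251). Both the libraries labelled ΔPcf11 and Pcf11-AARR gave a log2 fold change of -0.08 ± 0.11, not called. CBP3 overlaps 34.6% of the THI6 feature on the other strand.

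The regulator THI2 behaved much like THI6. Its level of 15.8, 14.8 and 15.2 CPM in WT rose to 24.7, 27.7 and 22.6 CPM in Pcf11-OE1 and 23.0, 23.5 and 28.2 CPM in Pcf11-OE2, each library above WT (log2 fold change 0.71 ± 0.13 in both, edgeR adjusted p = 0.000176 and 0.000215). Neither the libraries labelled ΔPcf11 nor Pcf11-AARR had THI2 called (-0.21 ± 0.13 in each), though without Pcf11-AARR replicate 3 the latter was called (-0.36). THI3, a relative of pyruvate decarboxylase that senses thiamine diphosphate, had 12.9, 11.6 and 11.6 CPM in WT. It rose in both overexpression strains (log2 fold changes 0.50 ± 0.12 and 0.51 ± 0.12) and in the libraries labelled ΔPcf11 (16.1, 15.7 and 15.7 CPM, 0.39 ± 0.12, edgeR adjusted p = 0.0114), where a fit of the first count table alone lost the call (0.32). PDC2, the DNA-binding partner of these regulators, was called in Pcf11-AARR alone of the comparisons with WT (0.27 ± 0.09, edgeR adjusted p = 0.0199).

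THI7, the high-affinity thiamine transporter, was the only member called higher than WT in each altered strain. It rose from 11.1, 12.8 and 12.6 CPM in WT to 35.6, 31.0 and 41.3 CPM in the libraries labelled ΔPcf11 and to 26.7, 30.7 and 37.7 CPM in Pcf11-AARR. Levels were higher still in Pcf11-OE1, with 82.9, 46.6 and 53.7 CPM, and in Pcf11-OE2, with 54.4, 44.2 and 43.3 CPM. The log2 fold changes were 1.56 ± 0.20, 1.38 ± 0.20, 2.33 ± 0.20 and 1.96 ± 0.20 in that order of strains (edgeR adjusted p = 1.19e-05, 3.14e-05, 2.11e-07 and 1.24e-06). No library of an altered strain overlapped WT, and each call was kept under each alternative run. ΔPcf11 and Pcf11-AARR overlapped each other, as did the overexpression strains, while both overexpression strains lay above both of the former in each library.

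THI72 and NRT1, the transporters closest in sequence to THI7 (84.2% and 83.8% identical), did not follow it. NRT1 carries nicotinamide riboside, and THI72 is known as a transporter of thiamine with low affinity. THI72 fell from 75.1, 88.3 and 79.6 CPM in WT to between 10.8 and 17.2 CPM in the other 12 libraries, with log2 fold changes of -2.58, -2.36, -2.84 and -2.74. Reads of THI7 and THI72 can be told apart, since at least 99.7% of their 100-base windows are unique. NRT1 rose in Pcf11-OE1 (log2 fold change 0.55) and Pcf11-OE2 (0.38), fell in Pcf11-AARR (-0.49) and was not called in the libraries labelled ΔPcf11 (-0.07).

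The ratio of THI7 to THI72 reads within a library, which no scaling moves, was 0.150 ± 0.00743 in WT. The libraries labelled ΔPcf11 stood at 2.64 ± 0.194 and Pcf11-AARR at 2 ± 0.18, while Pcf11-OE1 reached 5.44 ± 1.95 and Pcf11-OE2 reached 3.94 ± 0.781 (SD, n = 3). THI72 was thus the more abundant transcript in WT and THI7 in each altered strain.

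**Figure D4:**
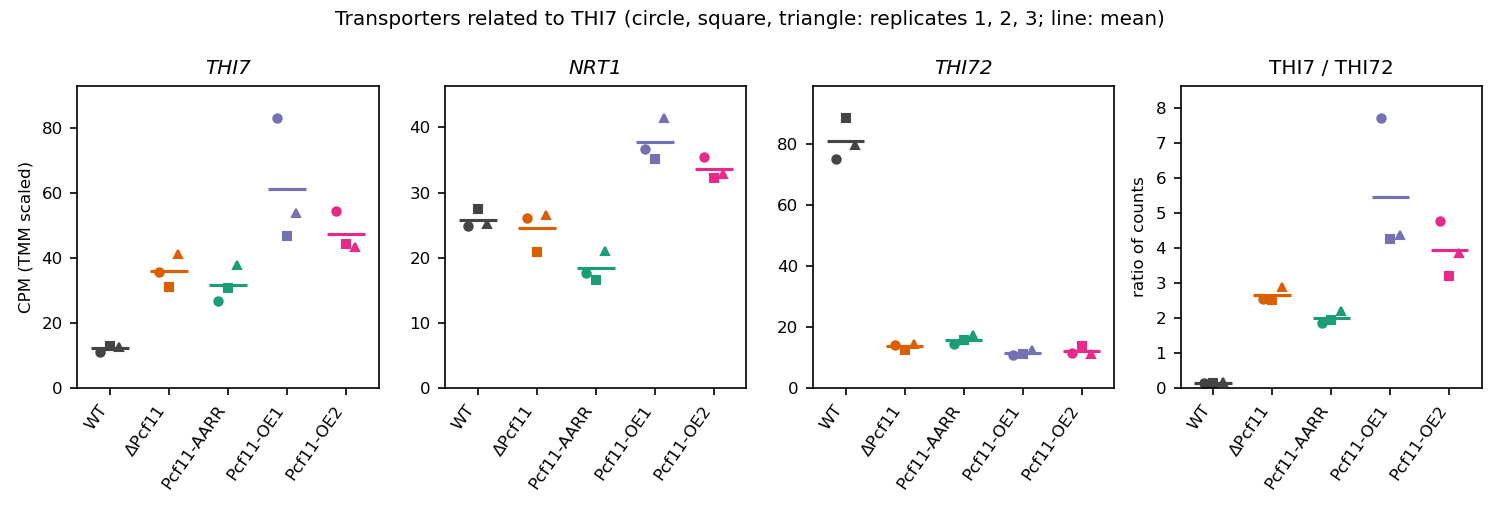
Levels of THI7, NRT1 and THI72 in CPM (first 3 panels, linear axes from 0) and the ratio of THI7 to THI72 reads (last panel) in the 15 libraries by strain. Symbols are replicates and lines are means. THI7 is lowest and THI72 highest in WT, and the ratio is 0.144 to 0.159 in WT and 1.85 or more elsewhere.

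Levels of the members relative to each other, in CPM per kilobase of the feature, shifted with these changes. In WT, THI6 (18.7) and THI12 (14.2) were on top and THI4 (3.88) at the bottom. In the libraries labelled ΔPcf11, THI12 (22.4) and THI4 (21.3) led, and in Pcf11-OE1 and Pcf11-OE2 THI7 and THI6 led, with 27.4 and 25.1 in the former and 21.2 and 25.2 in the latter. Features of the THI5 family hold the coding sequence alone and the others also 413 to 490 bases after the stop codon, so these levels are approximate. Reads that fit several THI5 family copies may also be missing from their levels, so the rank of THI12 is uncertain.

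Of 17 other genes of thiamine supply, 8 rose and 1 fell in the libraries labelled ΔPcf11, and Pcf11-AARR had 7 that rose and 3 that fell. Among the overexpression strains, Pcf11-OE1 had 9 that rose and 2 that fell, and Pcf11-OE2 had 8 that rose and 1 that fell. Shares of all features called higher and lower were 34.8% and 29.1%, 33.8% and 30.4%, 36.0% and 32.1%, and 34.0% and 31.1% in that order. The rises numbered somewhat above and the falls below these shares. SNZ2, SNO2, SNZ3 and SNO3 were among the rises in each strain, and SNZ2 and SNZ3, being near-identical, are not separate genes for this count. The list was chosen with earlier results known, and its counts are no result about it as a group. In the same order, median log2 fold changes were 0.25, 0.27, 0.35 and 0.38, against 0.02 to 0.07 over all features. The fall common to the 4 strains was that of THI72. THI80, the kinase that makes thiamine diphosphate, rose in ΔPcf11 (1.74 ± 0.29), Pcf11-AARR (1.66 ± 0.29) and Pcf11-OE1 (0.74 ± 0.30) from a low level of 1.77 ± 0.915 CPM in WT. SNZ2, SNO2, SNZ3, SNO3 and THI73, a plasma membrane permease, rose in each altered strain, whereas SNZ1, the most abundant of the vitamin B6 genes (744 ± 69.6 CPM in WT), was called in none of the comparisons made. PET18, a homologue of bacterial thiaminases, had the same calls against WT as THI5, rising in the libraries labelled ΔPcf11 (0.55) and falling in Pcf11-OE1 (-0.73). Between the overexpression strains, 0 of the 17 were called by edgeR, where 5 had an unadjusted p under 0.05, each higher in Pcf11-OE2, and DESeq2 called 2.

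Enzymes that use thiamine diphosphate changed in both directions. Of 10, 3 rose and 5 fell in the libraries labelled ΔPcf11 while Pcf11-AARR had 2 that rose and 4 that fell. Pcf11-OE1 had 2 and 5 and Pcf11-OE2 had 3 and 5, and the medians in the same order were -0.37, -0.33, -0.43 and -0.24, against 0.02 to 0.07 over all features. The rises were below the shares of all features given above for each strain, and the falls were above them. With only 10 genes and so many features called, these counts are no result about the enzymes as a group. PDC5, a minor pyruvate decarboxylase, rose in each strain (log2 fold changes 1.46 to 1.97) from 1.41 ± 0.312 CPM in WT. ARO10, the phenylpyruvate decarboxylase of amino acid breakdown, fell in each (-1.93 to -3.66) from 1199 ± 109 CPM. PDA1, PDB1 and KGD1, subunits of the mitochondrial pyruvate and oxoglutarate dehydrogenases, fell in each altered strain as well. The transketolase gene TKL1 fell in ΔPcf11, Pcf11-OE1 and Pcf11-OE2.

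**Figure D5:**
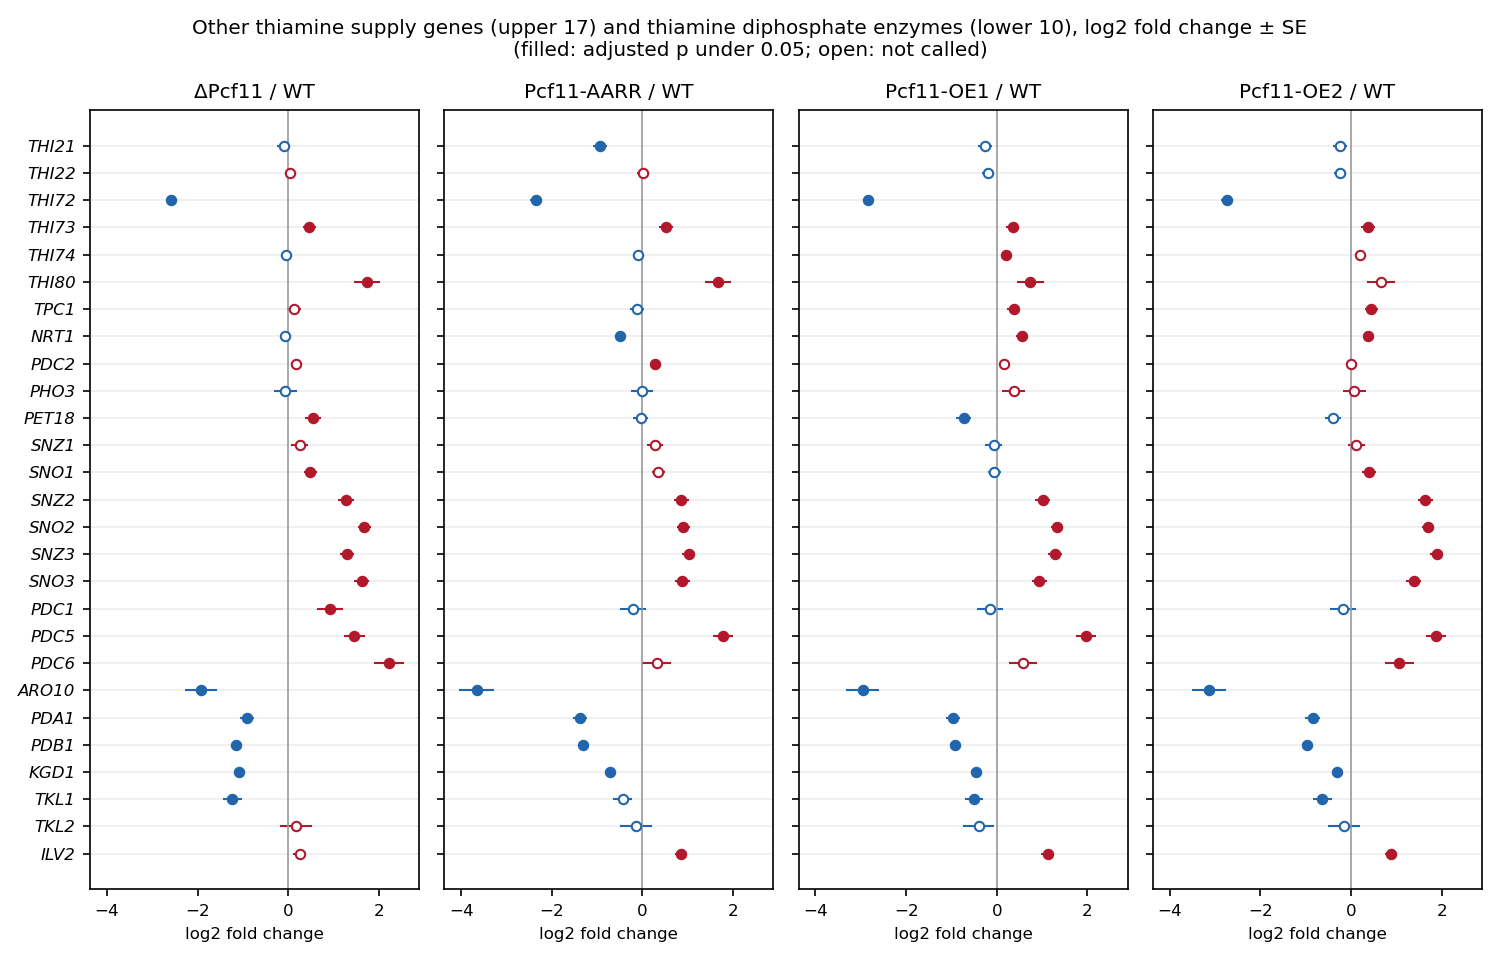
Log2 fold change with its standard error against WT for 17 other genes of thiamine supply and 10 enzymes that use thiamine diphosphate, on a shared x axis. Filled points have an edgeR adjusted p under 0.05. THI72 and ARO10 lie at the far left and PDC5, SNZ2, SNZ3, SNO2 and SNO3 to the right of 0 in each strain.

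Features whose log2 CPM ran most like that of a member over the 15 libraries were sought among those with a mean of at least 10 CPM. For the THI5 family sum they were DAL4 (r = 0.911), TSA1 (0.890), NTC20 (0.873), PST2 (0.870) and ERG25 (0.864) of 5412 features. For THI4 they were PDC6 (r = 0.940), PDR5 (0.934), SWI1 (0.933), STE24 (0.930) and DDI2 (0.924) of 5411. PDC6, a minor pyruvate decarboxylase and so a user of thiamine diphosphate, rose in the libraries labelled ΔPcf11 (log2 fold change 2.23 ± 0.33) and in Pcf11-OE2 (1.06 ± 0.32). PDR5 is a multidrug transporter, SWI1 a subunit of a chromatin remodeller and DAL4 the allantoin permease. These correlations are descriptions over libraries that share their scaling and strain, and those for THI4 follow the 3 libraries labelled ΔPcf11.

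CLIP, the sequencing of RNA that was crosslinked to and pulled down with a protein, comprised 2 immunoprecipitations and 2 inputs. The labels describe these as yeast overexpressing Flag-tagged Pcf11, whereas the genotype label of the inputs is WT, so which strain the inputs stand for is not settled. The authors called 1332 and 1707 peaks in the immunoprecipitations. Only 1 lay on a member. It was on THI20, in the second immunoprecipitation, on the strand opposite to the gene (chrXV:225770-226088, plus strand), with a height of 5 reads and 6 tags. Peaks of height 5 or less were 16.1% of that library's peaks. Reads of the immunoprecipitations on the members were not analysed here beyond the peaks. Across the 1066634 and 1002421 sense reads of the inputs, THI4 had 7 and 8, the 4 THI5 family genes together 2 and 1, and THI7, the most covered member together with THI3 and THI6, 133 and 100. The counted reads of the family were thus far below those of THI7 in the inputs. Its summed level in the WT RNA libraries was higher than that of THI7 (45.3 ± 4.44 CPM against 12.2 ± 0.923 CPM). In Pcf11-OE1 the family sum was instead below THI7 (26.2 ± 2.87 CPM against 61.1 ± 19.2 CPM). In Pcf11-OE2 they overlapped (42.3 ± 8.17 CPM against 47.3 ± 6.18 CPM), so this contrast depends on the strain set beside the inputs. Of the 100-base windows in these 4 genes, 40.5% to 62.7% are unique, and whether CLIP reads that fit several copies were kept is unknown. What part this had in their low input counts and their lack of peaks was not tested. No sense peak was listed on THI7, THI3 or THI6, whose authors' FPKM in the inputs was 38.0 to 50.9.

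In the authors' deposited table of each comparison with WT, a fold change is WT over the strain, so that its sign is opposite to those above. For THI4 the authors' deposited table gives -2.40 in ΔPcf11 with an FDR of 7.6e-06. Of 40 values for the members in the authors' deposited tables, 37 fell on the same side of 0.05 as here, and the 23 called in both had the same direction. The other 3 lay near the threshold. THI12 in Pcf11-OE2, called here, has an FDR of 0.0811 in the authors' deposited table. THI4 in Pcf11-AARR and THI13 in ΔPcf11, not called here, have FDRs of 0.0447 and 0.0359 in the authors' deposited tables.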

How the data were processed

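The authors deposited read counts for each annotated feature in 2 tables that share the WT libraries. Reads were trimmed with fastp 0.23.0, per the submitters' processing notes. The library kit was stranded, per the labels' protocols. No source used here gives the aligner, the build or the strand setting of counting. The tables were joined on 6863 features with no differing WT count, and 454 rows without a gene name (0.872% to 1.385% of reads) were left out. Counts were fitted over all 15 libraries with edgeR 4.0.16 (R 4.3.3), using TMM scaling, filterByExpr, robust quasi-likelihood and Benjamini-Hochberg adjustment over 6147 features at 0.05. The biological coefficient of variation was 0.145. Exact permutation tests used scipy 1.17.1. The labels call the replicates biological without naming separate cultures, so p-values measure the spread between these samples. On data simulated for ΔPcf11 against WT (6124 features, 50 genes at each fold), 56% of 1.5-fold and 98% of 2-fold changes were recovered, with 12 false calls. The simulation gave all genes the same spread and changed far fewer genes than were called in the data. Its figures therefore do not measure recovery or false calls in the real comparison.

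The members and gene lists were chosen with earlier results of these data known. Named genes are the members, the highest and lowest called genes of each list, and the 5 features most like THI4 and the THI5 family sum by Pearson r of log2(CPM + 0.5). PET18, SNZ1, TKL1, THI21, PDC2, NRT1 and the neighbouring genes were named after their values were seen. Same-numbered replicates were taken as paired where each of the 3 correlations of their deviations from the strain means passed 0.1, which held for Pcf11-AARR against WT alone of the 6 planned comparisons (0.116, 0.181 and 0.339). The alternatives were DESeq2 1.42.0, other scalings, no filter, smaller fits, the replicate block and leaving out each library. Sequences and positions come from the RefSeq annotation of R64.

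The authors deposited, for the CLIP libraries, peaks with their height as read depth (signal) and input FPKM and counts for each gene. The authors' comparison tables hold log2 fold changes and adjusted p-values (FDR), and their mapping table gives the percent of reads mapped.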

Additional observations from a re-analysis of the deposited data

Results flagged for a closer look

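THI5 was called in opposite directions in the libraries labelled ΔPcf11 (log2 fold change against WT 0.50 ± 0.16) and in Pcf11-OE1 (-0.71 ± 0.16). The direct comparison of the strains, added after the values were seen, gave -1.22 ± 0.16 for Pcf11-OE1 against ΔPcf11 (edgeR adjusted p = 1.52e-05, n = 3), lower in 3 of 3 libraries, and from -1.31 to -1.12 with any 1 library left out. A call in this direct comparison was a condition for the flag, so it is no separate support. THI5 shares reads with its copies, and the family sum was not called in ΔPcf11 against WT (0.29 ± 0.14, edgeR adjusted p = 0.0743).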

How the results depend on the processing

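No call of a member or of the THI5 family sum changed direction under any alternative run. Scaling by library totals alone moved the median log2 fold change of all features to between 0.20 and 0.41 against WT, and it moved the members called to 5 in Pcf11-AARR against WT (where 53.4% of all features were then higher and 16.7% lower) and to 1 in Pcf11-AARR against ΔPcf11 (35% and 11.1%), and the family sum to 0.42 in ΔPcf11 against WT (now called) and -0.30 in Pcf11-AARR against ΔPcf11 (no longer called). Fitting each count table alone gave 1 member called and a family sum of 0.69, not called, in Pcf11-OE2 against Pcf11-OE1, and called the sum in Pcf11-AARR against WT (-0.28). With the 2 overexpression strains alone, 0 members were called by edgeR (3 at an unadjusted p under 0.05) and the sum was 0.69, not called. With 1 library left out, the members called ranged from 4 to 5 in ΔPcf11 against WT, 3 to 4 in Pcf11-AARR, 8 to 9 in Pcf11-OE1 and 6 to 9 in Pcf11-OE2, from 1 to 6 in Pcf11-AARR against ΔPcf11, 1 to 2 in Pcf11-OE2 against Pcf11-OE1 and stayed at 9 in Pcf11-OE1 against ΔPcf11. The family sum ranged from 0.22 to 0.36, -0.32 to -0.18, -0.88 to -0.70 and -0.27 to 0.00 against WT in the same order, and from -0.60 to -0.46, 0.52 to 0.79 and -1.14 to -0.99 in the others. It was called in ΔPcf11 against WT without Pcf11-OE2 replicate 1 (0.29). The causes were not tested. The replicate block changed no other call than that of THI4 in Pcf11-AARR against WT, to 0.71. In Pcf11-AARR against WT the family sum with the block was -0.24 and in the other comparisons with WT it was 0.30, -0.79 and -0.10, on the same side of the threshold as without it. What depth alone limits was not tested.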
